A study of Mus musculus with 6 samples.

Results

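The genes described here are 41 genes of DNA replication and S phase, of 56305 genes in the table, measured in mouse liver. They were chosen by name from their roles: the 12 genes of the replicative helicase and its partner Mcm10, 5 genes of origin licensing, 7 of the polymerases and primase, 7 of the sliding clamp, its loader and the lagging strand, 5 of dNTP supply, Uhrf1, and 4 genes of cyclin E and E2F. RNA-Seq was done on whole liver from 3 WT and 3 Vps15LKO mice, with 1 library per liver. The mice were males of 5 weeks with free access to food, and livers were taken at ZT6 (6 h after lights on). Vps15LKO mice are AlbCre+;Vps15 f/f, in which Cre under the albumin promoter deletes Vps15, the regulatory subunit of class 3 PI3K, chronically and in cells that use that promoter. The genotype of the control mice of this cross is given only as WT or control, and whether they carried the floxed alleles or the Cre transgene is not given in the sources used here. In whole tissue, fewer cells of a type and less RNA per cell cannot be told apart.

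Replication starts at origins that are licensed in G1, when ORC, Cdc6 and Cdt1 load the ring of Mcm2 to Mcm7 onto DNA and geminin holds back a second loading. In S phase the ring is joined by Cdc45 and the GINS complex to form the working helicase, primase and the polymerases copy the strands, PCNA clamps them to DNA, and Fen1 and Lig1 finish the lagging strand. Most of these genes are targets of E2F transcription factors, are transcribed around the G1/S boundary and are low in adult liver, in which hepatocytes are mostly quiescent but can return to the cycle.

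The libraries held 16137093 to 18110223 reads on genes. Values are normalized counts, the reads of a gene divided by the size factor of its library. A read stood for 1.25 to 1.35 units in the WT libraries and for 0.707 to 0.810 units in those of Vps15LKO, because the size factors differed while the totals were similar. Scaling to the total of reads in place of these factors added 0.72 to the median change (log2) over all tested genes, which was −0.02 with the deposited values, and upper-quartile scaling added 0.12. Pik3r4, the gene of Vps15, had 508, 573 and 460 normalized counts in WT and 341, 362 and 355 in Vps15LKO livers. It was called lower (log2 fold change −0.54, limma adjusted p = 0.0021), and stood at 0.19 and was not called under total-read scaling. A table of whole-gene counts does not separate the deleted exons from the rest of the gene. WT replicate 3 was the highest WT liver for 24 of the 41 members (58.5%) and for 27 of 28 genes of mitosis, against 32.9% of all tested genes, and leaving it out moved 7 of the 40 tested members and 24 of the 28 mitosis genes by over 1.2-fold. Without it, the 7 members had log2 fold changes of 2.81 (Mcm5), 2.75 (Mcm6), 2.91 (Cdc6), 3.37 (Pole2), 4.42 (Uhrf1), 1.08 (Ccne1) and 0.58 (Ccne2). Summed over their list, the hepatocyte markers exceeded the markers of each other cell type examined in every liver.

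Of the 41 replication genes, 27 were called higher and 2 lower in Vps15LKO liver, 11 were not called and 1, Orc1, was not tested. Every gene of the Mcm2 to Mcm7 ring rose. Among the tested members Uhrf1, Pole2, Lig1 and Cdc6 had the largest rises with the deposited values. With quantile normalization Pole2 (1.68) and Cdc6 (1.25) stood below Mcm6 (2.34), Mcm2 (2.04) and Mcm5 (2.04). The 2 members that fell were Mcm10 and, except under total-read scaling, Tk1. A call in limma needed a Benjamini-Hochberg adjusted p below 0.05 together with a 1.2-fold difference. By this rule 33.5% of the 15430 tested genes were called higher and 33% lower, 66.5% in all, so a call by itself is common in these livers. The median log2 fold change of the 41 genes was 0.96, and that of all tested genes −0.02. Single members ran from −3.49 to 3.91. The 3 WT and the 3 Vps15LKO values did not overlap for 32 members, 30 with all Vps15LKO livers above and 2 with all below, while 73.2% of all tested genes were separated in this way, 36.4% upwards and 36.8% downwards.

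**Figure D1:**
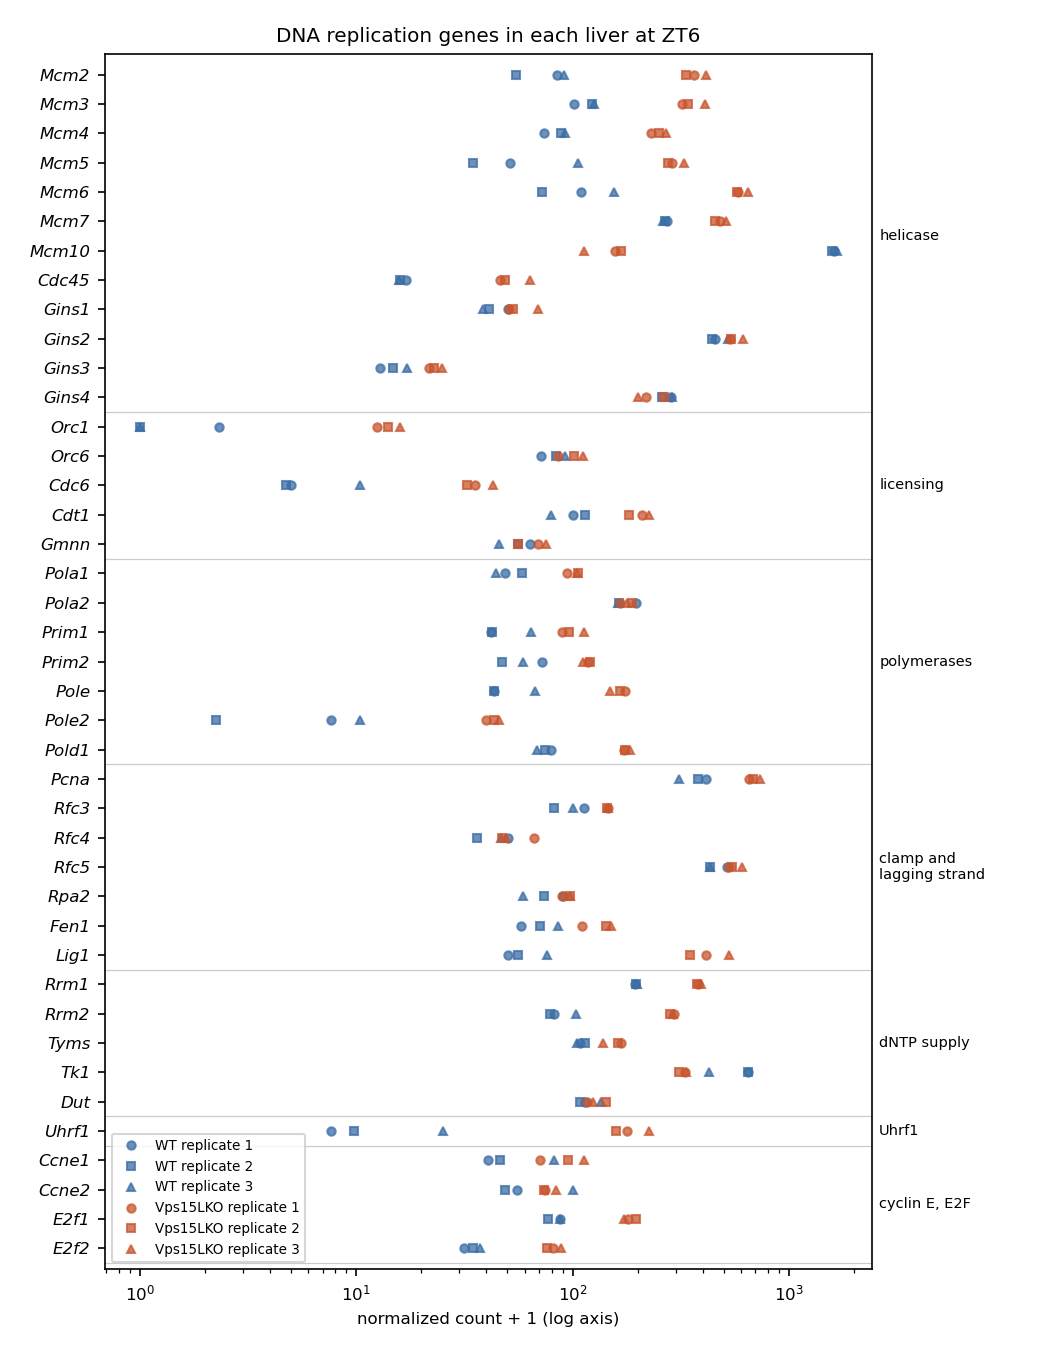
Normalized counts plus 1 (log axis) of the 41 replication genes in each of the 3 WT (blue) and 3 Vps15LKO (orange) livers, with the replicate shown by the marker and genes grouped by role. The orange markers lie right of the blue for 30 genes and left of them for Mcm10 and Tk1 (the latter not called under total-read scaling), and the blue markers of Mcm10 lie between 1575 and 1661.

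Orc1 missed the filter, which asked for 20 normalized counts in at least 3 livers. Cdc45, Gins3, Cdc6 and Pole2 reached 20 in Vps15LKO livers alone, and Uhrf1 in 1 WT liver, so these 5 genes entered the test through the group in which they are high. With each liver left out in turn, 25 to 29 members were called higher, and without WT replicate 3 the count was 29. Under total-read scaling 38 members were called higher and 1 lower (all tested genes: 66.8% and 11.1%), and with quantile normalization 24 and 3 (30.4% and 37.6%), with medians over the 40 tested members of 1.66 and 0.50. Gins1, Gins3, Orc6, Gmnn, Pola2, Rfc4, Rpa2, Dut and Ccne2, none of them called with the deposited values, stood below 0 with quantile normalization and were not called there either, while Gins4 was called lower (−0.44). Under the same normalization Rfc3 (0.17), Fen1 (0.46), Tyms (0.14) and Ccne1 (0.24) lost their calls and Gins2 (0.29) gained one. On the recovered reads, edgeR called 29 members higher and 2 lower (all tested genes: 34.9% and 31.3%), DESeq2 26 and 2 (32.6% and 32.4%) and limma voom 28 and 2 (34.8% and 31.3%). For 13 members, part of the exons overlaps another annotated gene, and whether reads were counted by strand is not given in the sources used here. Among the other 28, 20 were called higher and 1 lower, with a median log2 fold change of 1.01.

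The ring of Mcm2 to Mcm7, the motor of the helicase, was higher in Vps15LKO liver at all 6 genes, with a median log2 fold change of 1.96. Mcm2 had 83.5, 53.7 and 90.3 normalized counts in WT and 365, 334 and 413 in Vps15LKO livers, 4.89 times as much on average (log2 fold change 2.30, standard error 0.20, limma adjusted p = 2.14e-05). Mcm6 had 109, 71.2 and 154 against 578, 573 and 644 normalized counts (log2 fold change 2.48, standard error 0.24, limma adjusted p = 3.83e-05). Mcm5 had 50.4, 33.7 and 105 against 287, 275 and 325 (log2 fold change 2.37, standard error 0.35, limma adjusted p = 3.78e-04), and the change was 2.81 without WT replicate 3. In Mcm5 and Mcm6 the spread among WT livers was wide, with replicate 3 highest, but it stayed below every Vps15LKO liver. Mcm3 (101, 122 and 124 against 319, 342 and 410 normalized counts) and Mcm4 (72.9, 87.4 and 91.7 against 229, 249 and 268) rose by similar amounts, with log2 fold changes of 1.61 and 1.56. Mcm7 was the highest of the ring in WT liver and changed least, from 273, 267 and 260 to 480, 456 and 509 normalized counts (log2 fold change 0.85, limma adjusted p = 7.46e-05). Its exons share 12.6% of their length with other genes, the Mir25 and Mir93 hairpins on its own strand and Ap4m1 and Cops6 on the other.

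The 6 proteins of the ring act in equal numbers, so their transcripts were also compared per exon length. That length takes in every annotated exon of a gene over all its transcripts, which can exceed the length of the RNA made. It was 6956 bases for Mcm2, and from 3589 (Mcm4) to 4666 (Mcm6) for the others. The order of the genes within a genotype, and the ratios between them, depend on it. In normalized counts per kb of exon, Mcm7 stood at 60.3 and Mcm2 at 10.9 in WT, and the highest gene of the ring was 4.53 to 7.82 times the lowest in the 3 livers. In Vps15LKO livers Mcm6 was highest (128 per kb) and Mcm2 again lowest (53.3 per kb), and the ratio was 2.33 to 2.56. The ranges of the ratio did not overlap. With 3 livers against 3, no exact permutation test can go under p = 0.1, so no smaller p is given for it.

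Mcm10, which binds the ring and is needed to start the helicase, moved the other way. It had 1618, 1575 and 1661 normalized counts in WT livers, the highest value of all 41 genes there, and 156, 167 and 112 in Vps15LKO livers. The WT mean was 11.2 times the Vps15LKO mean (log2 fold change −3.49, standard error 0.15, limma adjusted p = 7.03e-07), and the change lay between −3.60 and −3.32 with each liver left out. Per kb of exon it went from 210 to 18.9. In WT liver it thus stood above each gene of the ring per exon length, and in Vps15LKO liver below each of them. It was called lower under all 4 other scalings, at −2.77 with total-read scaling. The exons of Mcm10 (chromosome 2, 4989714 to 5012791, GRCm38) overlap no other gene. The neighbour Ucma was at 0 in all livers. Optn, on the other side, had 1388, 1458 and 1329 normalized counts in WT and 1176, 1204 and 1036 in Vps15LKO livers, and Phyh, 50984 bases away, an enzyme of peroxisomal fatty acid oxidation, had 45131, 40418 and 42122 against 9068, 13214 and 6514.

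**Figure D2:**
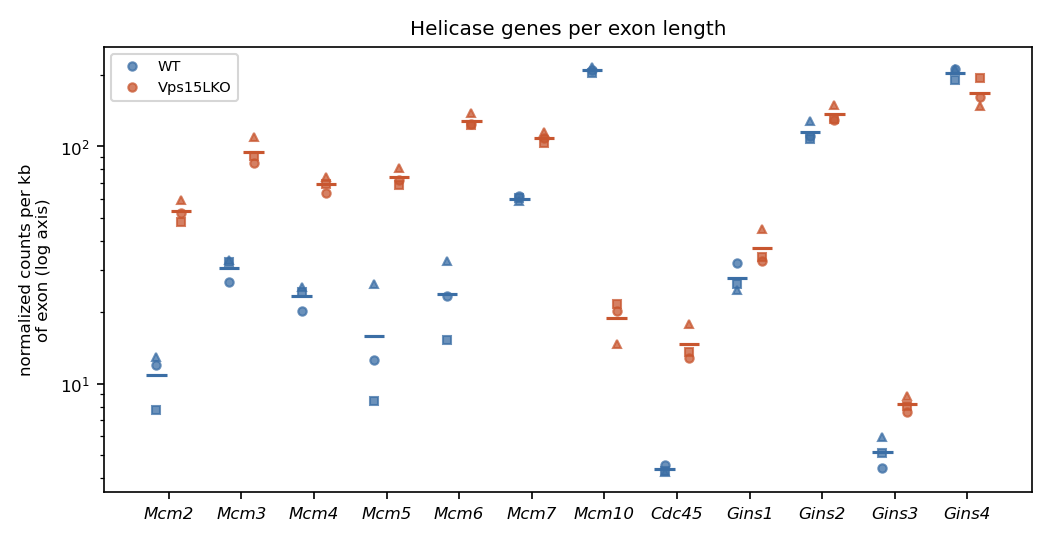
Normalized counts per kb of exon (log axis) of the 12 helicase genes in WT (blue) and Vps15LKO (orange) livers, with 1 marker per liver and a bar at the mean of 3. Mcm10 goes from 210 to 18.9 while each gene of the ring rises, and the 4 GINS genes lie at unequal levels in both genotypes.

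The partners of the ring split into a gene that rose and 4 that were not called. Cdc45, which joins the ring when an origin fires, had 15.9, 15.0 and 14.8 normalized counts in WT and 45.1, 47.8 and 62.2 in Vps15LKO livers (log2 fold change 1.68, standard error 0.23, limma adjusted p = 2.38e-04). The other partners are the 4 subunits of GINS, a complex that holds 1 copy of each. Gins1 had a log2 fold change of 0.40 (95% interval −0.07 to 0.88) and Gins2 of 0.24 (−0.00 to 0.49). For Gins3 the value was 0.64 (0.03 to 1.25) and for Gins4 −0.29 (−0.58 to 0.00). These intervals are limma's for a single gene, and the limma adjusted p of the 4 genes lay between 0.062 and 0.113. Gins4 had 285, 257 and 286 normalized counts in WT and 218, 263 and 200 in Vps15LKO livers, with overlap, and under total-read scaling its direction turned to 0.44 and it was called higher. Gins2 was called higher in 7 of the 21 alternatives, including all 4 other scalings (0.29 to 0.97), and Gins3 in 6 of its 20, both of them also without WT replicate 3 (0.32 and 0.74). Without Vps15LKO replicate 2, Gins4 (−0.40) was called lower. The levels of the 4 genes were far apart in WT liver, at 27.9, 116, 5.15 and 205 normalized counts per kb of exon for Gins1 to Gins4. Gins2 shares 67.3% of its exon length with Gse1 on the other strand, so its value is uncertain.

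**Figure D3:**
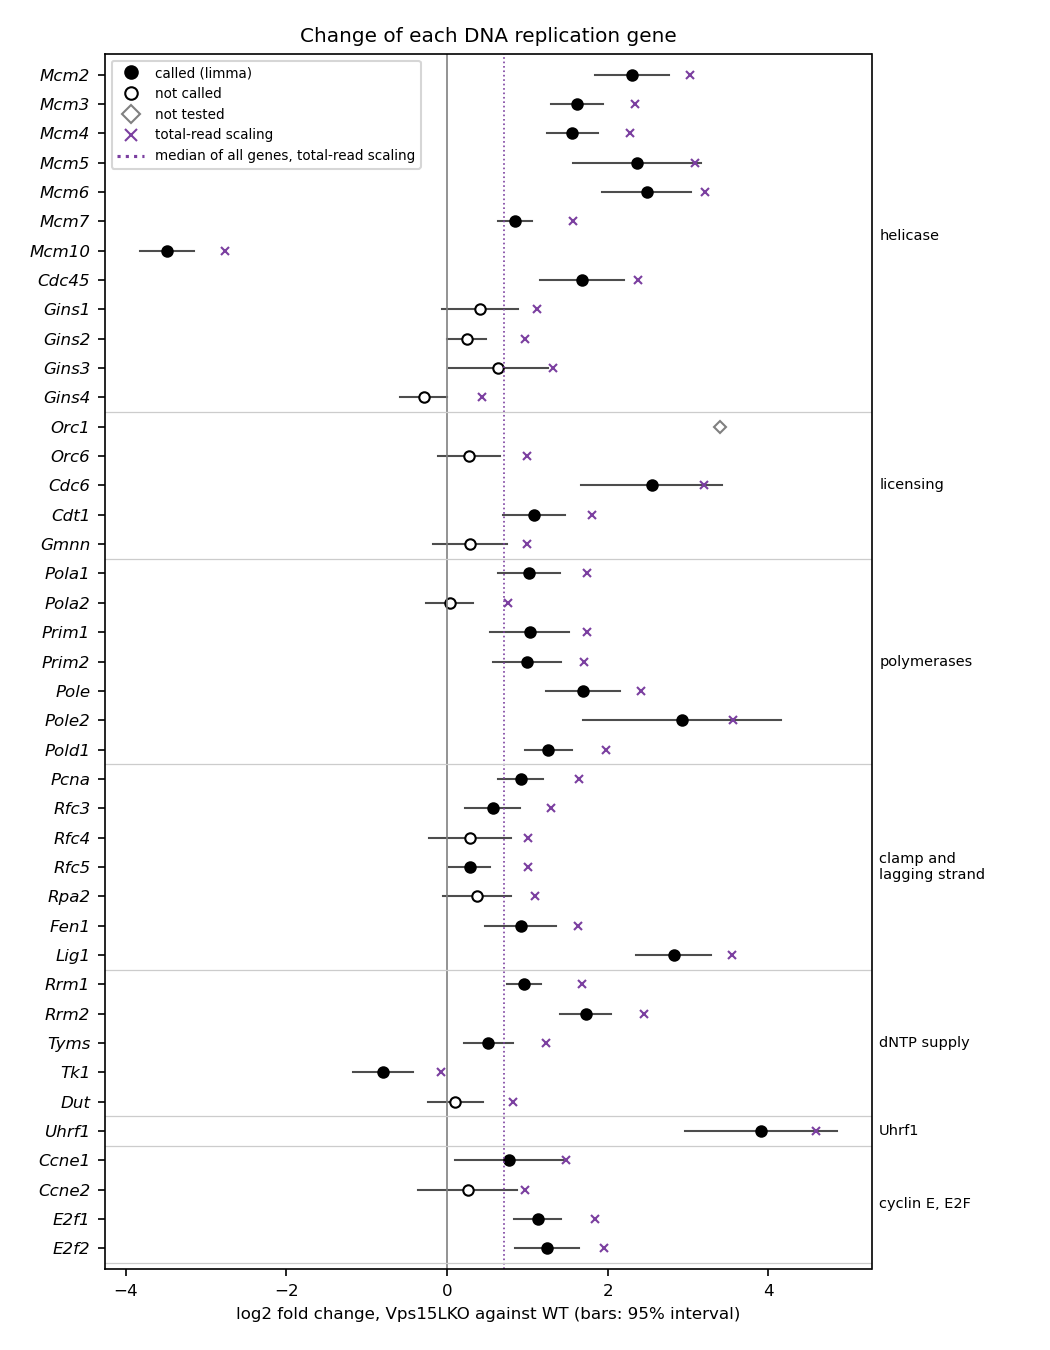
Log2 fold change of each member, Vps15LKO against WT, with its 95% interval in limma; filled points were called, open points were not, the diamond is Orc1 (not tested), and crosses show total-read scaling. The crosses lie about 0.72 to the right, where Gins4 turns to 0.44 and Tk1 stands at −0.07, and the dotted line marks the median of all tested genes under that scaling.

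E2F proteins bind sites such as TTTCCCGC, TTTGGCGC and TTTCGCGC, and these 3 strings were searched on both strands in the 250 bases before each start in the RefSeq promoters of GRCm38.p6. Entries were found for 33 of the 41 members, 39 in all, as some genes have several starts. Mcm4, Gins1, Gins2, Gins4, Gmnn, Prim2, Pole and Ccne2 had none. At least 1 of the strings was in 9 of the 39 entries (23.1%) and in 504 of all 32851 entries (1.53%). In the full window of 300 bases, which adds the 50 bases after the start, the counts were 15 of 39 (38.5%) against 1.84% of all entries. The 9 genes with a string before the start were Mcm5, Mcm6, Mcm7, Gins3, Orc1, Cdc6, Pola1, Rfc3 and Uhrf1, the last at its second start. A match is a string of letters and not a measured site. No ChIP signal of an E2F was used, and the letters in members and in all promoters may differ with base composition, which was not tested. The 150 bases before the start are shown for the helicase genes with the largest rise and the largest fall that have an entry, for the dNTP genes with the largest rise and the fall, and for Uhrf1, the largest rise among the tested members. They run 5′ to 3′ on the strand of the gene, end before the more upstream of the RefSeq and GENCODE starts, and have the strings in capitals, which occur in Mcm6 alone, where 2 of its 3 strings overlap. The regions are chr1:128359706-128359855 (minus strand) for Mcm6, chr2:5012792-5012941 (minus) for Mcm10, chr12:24708091-24708240 (plus) for Rrm2, chr11:117826093-117826242 (minus) for Tk1 and chr17:56303171-56303320 (plus) for Uhrf1.
Mcm6: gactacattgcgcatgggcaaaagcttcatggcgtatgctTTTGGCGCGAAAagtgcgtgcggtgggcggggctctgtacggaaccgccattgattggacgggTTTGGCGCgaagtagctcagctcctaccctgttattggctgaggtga
Mcm10: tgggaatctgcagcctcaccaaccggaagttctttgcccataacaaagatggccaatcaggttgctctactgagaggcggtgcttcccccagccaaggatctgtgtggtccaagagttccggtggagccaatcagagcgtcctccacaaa
Rrm2: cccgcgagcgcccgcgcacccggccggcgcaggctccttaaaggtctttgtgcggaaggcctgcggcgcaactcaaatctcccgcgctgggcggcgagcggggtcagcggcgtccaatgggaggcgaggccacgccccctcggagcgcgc
Tk1: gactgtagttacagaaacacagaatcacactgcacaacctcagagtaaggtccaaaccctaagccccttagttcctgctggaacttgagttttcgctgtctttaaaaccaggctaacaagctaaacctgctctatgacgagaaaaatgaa
Uhrf1: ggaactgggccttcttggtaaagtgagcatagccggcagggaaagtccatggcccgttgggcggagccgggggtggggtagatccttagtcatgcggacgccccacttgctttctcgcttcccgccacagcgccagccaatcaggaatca

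Among the 5 licensing genes, the loaders Cdc6 and Cdt1 were higher in Vps15LKO liver, Orc1 went from 1 read to 52 reads, and Orc6 and the inhibitor geminin were not called. Cdc6, which brings the ring to ORC, had 3.98, 3.75 and 9.44 normalized counts in WT and 34.4, 31.6 and 41.7 in Vps15LKO livers (log2 fold change 2.55, standard error 0.38, limma adjusted p = 4.16e-04). Cdt1, its partner in loading, had 99.4, 114 and 78.2 against 208, 182 and 224 (log2 fold change 1.08, standard error 0.17, limma adjusted p = 5e-04). Orc1, the largest subunit of ORC, had 1.33, 0 and 0 normalized counts in WT and 11.5, 13.0 and 14.9 in Vps15LKO livers. The 3 WT libraries together held 1 read of it and the Vps15LKO libraries 52, a ratio of 30.2 after scaling with an exact 95% interval of 5.18 to 1215 that covers counting error only. It shares 10.8% of its exon length with Gm12743 on the other strand, which had 0 in each WT liver and 6.11, 8.91 and 14.1 normalized counts in Vps15LKO livers. Orc6, a small subunit of ORC, had 70.3, 82.4 and 91.7 against 84.8, 100.5 and 110 (log2 fold change 0.27, 95% interval −0.12 to 0.66). Gmnn, the gene of geminin, which binds Cdt1, had 62.3, 55.0 and 44.5 against 68.0, 55.1 and 74.3 (0.28, −0.17 to 0.74). In both the genotypes overlapped, and both were called higher only under total-read scaling among the 21 alternatives. Orc6 shares 6.93% of its exon length with Vps35 on the other strand. Vps35 had 2277, 2232 and 2106 normalized counts in WT and 2222, 2416 and 2134 in Vps15LKO livers. How many reads of Vps35 were counted for Orc6 was not tested.

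Of the 7 polymerase and primase genes, 6 rose and Pola2 did not pass the test. The median log2 fold change was 1.03. Pole2, the second subunit of the leading strand polymerase epsilon, had 6.63, 1.25 and 9.44 normalized counts in WT and 38.9, 42.1 and 44.6 in Vps15LKO livers (log2 fold change 2.93, standard error 0.54, limma adjusted p = 0.00136). Its WT level rests on few reads, and with a liver left out the change lay between 2.26 and 3.37. Pole2 shares 8.50% of its exon length with Gm49384 on the same strand. Gm49384 had 39.8, 52.5 and 56.6 normalized counts in WT and 55.7, 53.5 and 49.5 in Vps15LKO livers. How reads of the shared stretch were counted was not tested. Pole, the catalytic subunit, had 42.4, 42.5 and 66.1 against 173, 164 and 148 (log2 fold change 1.69, limma adjusted p = 1.09e-04). Pold1, the catalytic subunit of the lagging strand polymerase delta, had 78.2, 73.7 and 67.4 against 172, 174 and 183 (log2 fold change 1.26, limma adjusted p = 5.16e-05), with little spread in either genotype.

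DNA polymerase alpha and primase work as 1 complex of 4 subunits, and 3 of its genes rose. The catalytic subunit Pola1 had a log2 fold change of 1.02, the catalytic subunit of primase Prim1 of 1.03 and its large subunit Prim2 of 0.99, with means of 49.4, 48.6 and 58.6 normalized counts in WT and 101, 98.4 and 116 in Vps15LKO livers. Pola2, the regulatory subunit, had 195, 162 and 160 against 165, 186 and 178 normalized counts, a log2 fold change of 0.03 (95% interval −0.26 to 0.33, limma adjusted p = 0.824). Per kb of exon it stood above the others in WT liver, at 20.8 against 5.61 for Pola1, 12.6 for Prim1 and 9.87 for Prim2, while in Vps15LKO liver Prim1 (25.4) was above Pola2 (21.3). This order depends on the lengths counted over all annotated exons. They were 8294 bases for Pola2, 8813 for Pola1, 3868 for Prim1 and 5938 for Prim2. Whether the changes of the 4 genes differed from each other was not tested.

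In the group of the clamp and the lagging strand, 5 of 7 genes were higher and the median log2 fold change was 0.57. Lig1, the ligase that seals Okazaki fragments, rose most, from 49.1, 55.0 and 75.5 to 412, 348 and 526 normalized counts, 7.17 times as much on average (log2 fold change 2.82, standard error 0.20, limma adjusted p = 8.82e-06). Pcna, the sliding clamp, had 414, 378 and 310 against 656, 683 and 732 (log2 fold change 0.92, standard error 0.12, limma adjusted p = 2.08e-04), and its pseudogenes held at most 4.05 normalized counts in a liver. Fen1, the flap nuclease, had 57.0, 69.9 and 84.9 against 110, 142 and 149 (log2 fold change 0.92, limma adjusted p = 0.00292), but 78.8% of its exon length lies opposite the antisense gene Gm10143. That gene had 58.3, 67.5 and 80.9 against 106, 137 and 147 normalized counts, almost the same values as Fen1 in each liver, so the pair cannot be told apart.

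The log2 fold changes of the clamp loader genes stood below those of Lig1, Pcna and Fen1, a difference that was not tested. Rfc3 had 111, 81.2 and 99.8 against 145, 143 and 144 normalized counts (log2 fold change 0.57, limma adjusted p = 0.009). Rfc5 had 517, 430 and 433 against 525, 543 and 606 and passed narrowly (log2 fold change 0.28, limma adjusted p = 0.0491). The call was lost in 11 of the 21 alternatives, including those without WT replicate 2 or 3 and without each Vps15LKO replicate. Rfc5 shares 10.7% of its exon length with Wsb2 on the other strand. Wsb2 had 1628, 1544 and 1488 normalized counts in WT and 2005, 1924 and 2080 in Vps15LKO livers. How many reads of Wsb2 were counted for Rfc5 was not tested. Rfc4 (log2 fold change 0.29, 95% interval −0.22 to 0.80) and Rpa2, a subunit of the protein that covers single-stranded DNA (0.37, −0.05 to 0.80), were not called, and in both the genotypes overlapped. Without WT replicate 1, Rpa2 (0.52) was called higher. Rfc4 shares 12.7% of its exon length with Eif4a2, which fell from between 2743 and 3333 to between 1432 and 1703 normalized counts.

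The dNTP genes were split, with ribonucleotide reductase and Tyms higher (Tyms not with quantile normalization), Tk1 lower and Dut not called. Under total-read scaling Tk1 (−0.07) was not called and Dut (0.82) was called higher. Rrm2, the small subunit of ribonucleotide reductase, which makes deoxyribonucleotides and is limiting in S phase, had 80.9, 77.4 and 102 normalized counts in WT and 295, 280 and 290 in Vps15LKO livers (log2 fold change 1.73, standard error 0.14, limma adjusted p = 1.42e-05). Rrm1, the large subunit, had 194, 195 and 198 against 377, 376 and 390 (log2 fold change 0.96, standard error 0.09, limma adjusted p = 3.89e-05), and its spread was the smallest of the group in both genotypes relative to its mean. Tyms, which makes dTMP from dUMP, rose from 107, 114 and 104 to 167, 161 and 138 (log2 fold change 0.51, limma adjusted p = 0.008). Dut, which breaks down dUTP, had 113, 107 and 135 against 115, 142 and 124 (log2 fold change 0.10, 95% interval −0.24 to 0.44).

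Tk1, the thymidine kinase of the cytosol, which recycles thymidine, had 646, 647 and 426 normalized counts in WT and 328, 310 and 333 in Vps15LKO livers. It was lower in every Vps15LKO liver (log2 fold change −0.79, standard error 0.16, limma adjusted p = 0.00242), although under total-read scaling it stood at −0.07 and was not called. The opposite strand holds Afmid, a gene of tryptophan breakdown, which shares 1.60% of the exon length of Tk1. Afmid had 5139, 5379 and 3489 normalized counts in WT and 800.3, 867 and 634 in Vps15LKO livers. WT replicate 3 was the lowest WT liver for both genes, and how many reads of Afmid were counted for Tk1 was not tested.

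Uhrf1, which binds hemimethylated DNA behind the fork and brings Dnmt1 to it, had the largest rise among the tested members on the log2(normalized count + 1) scale. Its normalized counts were 6.63, 8.74 and 24.3 in WT and 177, 157 and 223 in Vps15LKO livers, 14.1 times as much on average (log2 fold change 3.91, standard error 0.41, limma adjusted p = 6e-05). WT replicate 3 was 3.16 times the mean of the other WT livers, the largest such ratio of the members, and without it the log2 fold change was 4.42. Dnmt1, the maintenance methyltransferase itself, which was picked after its values were seen, had 239, 262 and 229 against 547, 545 and 583 normalized counts, 2.29 times as much on average (limma adjusted p = 1.5e-05).

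The cyclin E and E2F genes drive entry into S phase. E2f1 and E2f2, activating E2F factors, rose from 86.2, 76.2 and 86.3 to 179, 195 and 173 normalized counts and from 30.5, 33.7 and 36.4 to 80.2, 75.4 and 87.0. Their log2 fold changes were 1.13 and 1.25 (limma adjusted p = 9.45e-05 and 2.74e-04). Ccne1, a cyclin E that activates Cdk2, had 39.8, 45.0 and 80.9 against 69.5, 94.0 and 112, so WT replicate 3 lay above Vps15LKO replicate 1. It passed narrowly (log2 fold change 0.77, standard error 0.29, limma adjusted p = 0.0442) and was not called in 8 of the 21 alternatives, including those without WT replicate 1 or 2 and without Vps15LKO replicate 2 or 3. Without WT replicate 3 its log2 fold change was 1.08. Ccne2, the other cyclin E, had 54.4, 47.5 and 99.8 against 73.3, 72.9 and 82.8 (log2 fold change 0.26, 95% interval −0.36 to 0.87) and was not called. Its highest liver was WT replicate 3, and without that liver the value was 0.58 and it was called higher. Ccne2 shares 17.4% of its exon length with Ints8 on the other strand.

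WT replicate 3 was not high in all replication genes. Against the mean of the other WT livers it was 3.16 times as high for Uhrf1, 2.50 for Mcm5, 2.44 for Cdc6, 2.40 for Pole2, 1.96 for Ccne2 and 1.91 for Ccne1. For Rrm1 and Mcm10 the ratio was 1.02 and 1.04, and for Tk1, Rpa2, Cdt1, Gmnn and Pcna it was 0.659, 0.719, 0.734, 0.759 and 0.783. The median deviation of the 41 genes from the WT mean was 0.09 on the log2 scale in this liver, and that of the 28 genes of mitosis was 0.99. In Vps15LKO livers, replicate 3 was highest for 28 of the 41 members (68.3%, against 35% of all tested genes), with a median deviation of 0.11.

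**Figure D4:**
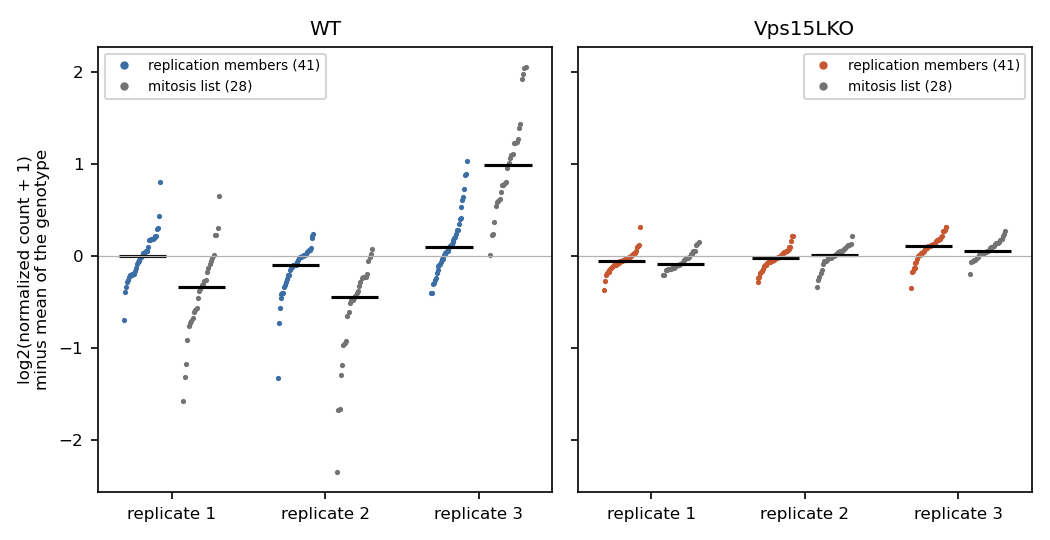
Deviation of log2(normalized count + 1) from the mean of the genotype, for the 41 replication members (colour) and the 28 genes of mitosis (grey), with 1 point per gene and a bar at the median. In WT replicate 3 the bar of the mitosis genes is at 0.99 and that of the replication members at 0.09, while in Vps15LKO replicate 3 they are at 0.06 and 0.11.

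Other genes of these pathways were taken from lists written by hand. Of 46 other genes of the replication machinery, 17 were called higher, 8 lower, 19 not called and 2 not tested, with a median log2 fold change of 0.21. The shares over all tested genes were 33.5% called higher and 33% lower. The largest rises were those of Top2a, the topoisomerase of dividing cells (3.94, from 22.5, 17.5 and 72.8 to 476, 506 and 482 normalized counts), Ticrr, which helps load Cdc45 (3.72), and Clspn, a fork mediator of the checkpoint (3.02), and without WT replicate 3 these were 4.55, 3.85 and 3.58. Ticrr and Clspn reached 20 normalized counts in no WT liver, so they entered the test through the Vps15LKO livers, where they are high. The largest falls were those of Rnaseh2c (−0.70) and Dna2 (−0.66), which act on primers and flaps, of Pole4 (−0.48), a small subunit of polymerase epsilon, and of Top2b (−0.46), the topoisomerase of resting cells. Under total-read scaling these 4 stood at 0.02, 0.06, 0.24 and 0.27, with Top2b called higher. With that scaling 37 genes of the list were called higher and 0 lower (median over the tested genes 0.87), against 66.8% and 11.1% of all tested genes. With quantile normalization 15 were higher and 12 lower (median over the tested genes 0.096), against 30.4% and 37.6% of all tested genes.

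Of 13 other dNTP genes, 4 were called higher and 4 lower (median −0.05), under total-read scaling 10 higher and 1 lower (median 0.67), and with quantile normalization 4 higher and 5 lower (median 0.09). The shares over all tested genes were 33.5% higher and 33% lower. They were 66.8% and 11.1% under total-read scaling, and 30.4% and 37.6% with quantile normalization. Dctd, which deaminates dCMP, had the largest rise (2.99, from 5.30, 1.25 and 2.70 to 29.0, 24.3 and 33.2 normalized counts) and passed the filter through the Vps15LKO livers alone, followed by the salvage kinase Dck (1.19) and Samhd1 (1.08), which breaks down dNTPs. Shmt1, which supplies one-carbon units to Tyms, fell from 3301 ± 498 to 1002 ± 248 normalized counts (SD, n = 3; log2 fold change −1.74, limma adjusted p = 6.75e-05) and stayed lower under total-read scaling (−1.01). Dctpp1 (−0.81) and Dguok, a mitochondrial kinase (−0.35), also fell. Under total-read scaling they stood at −0.08 and 0.38, and Dguok was called higher. Dguok also lost its call without any one liver other than WT replicate 3, with log2 fold changes of −0.38 to −0.28.

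The 29 regulators of G1/S and of E2F and Rb had 17 genes called higher and 4 lower, with a median of 0.57 (all tested genes: 33.5% higher and 33% lower). Cdkn1a, the Cdk inhibitor p21, had the largest rise, from 34.5, 40.0 and 115 to 1037, 999 and 1231 normalized counts (log2 fold change 4.30, limma adjusted p = 2.55e-05, and 4.83 without WT replicate 3). E2f7, a repressive E2F, rose by 3.49 from very few reads (4.30 without WT replicate 3) and passed the filter through the Vps15LKO livers alone, and Ccna2, cyclin A, which pairs with Cdk2 in S phase, by 2.72. E2f8, the other repressor of this kind, was called lower (−1.22, limma adjusted p = 0.0175), with 328, 192 and 577 normalized counts in WT and 137, 194 and 106 in Vps15LKO livers, so the genotypes overlapped. Without WT replicate 1 (−1.23) or Vps15LKO replicate 3 (−1.02) it was not called. The 610 bases of E2f8 shared with Gm2788 on the other strand are 11.2% of its exons, and Gm2788 had 503, 367 and 1020 against 43.5, 119 and 25.5 normalized counts. The Rb relative Rbl2 (−0.97), Tfdp2 (−0.75), a partner of E2Fs, and E2f6 (−0.51) were also lower. Under total-read scaling none of these 4 was called and E2f6 turned to 0.21. The list then had 24 genes called higher and 0 lower (median over the tested genes 1.21), against 66.8% and 11.1% of all tested genes. With quantile normalization it had 17 higher and 6 lower (median over the tested genes 0.43), against 30.4% and 37.6%.

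Of 9 checkpoint genes, Chek1, the kinase that answers stalled forks (1.89), and Atrip, the partner of Atr (0.55), were higher and 7 were not called, with a median of 0.03. Chek1 reached 20 normalized counts in Vps15LKO livers alone. The checkpoint list had 8 genes called higher and 0 lower under total-read scaling (median 0.75), and 3 higher and 4 lower with quantile normalization (median −0.12). Among all tested genes 33.5% were called higher and 33% lower. Total-read scaling gave 66.8% and 11.1%, and quantile normalization 30.4% and 37.6%. All 28 genes of mitosis were called higher, with a median of 3.48 and the largest rises at Ccnb1 (5.24), Bub1 (4.73) and Cdc20 (4.53). They were also all called higher under total-read scaling (median 4.13) and with quantile normalization (median 2.88). All 28 reached 20 normalized counts in every Vps15LKO liver, but 21 of them did so in fewer than 3 WT livers and 6, Bub1 and Ttk included, in none, so these genes entered the test through the group in which they are high. Without WT replicate 3 all 28 were still called higher, the median was 3.96, and the order changed to Ccnb1 (6.26), Cdc20 (5.56), Ttk (5.42) and Bub1 (5.24). The members and these lists are set side by side as descriptions, and the difference between them was not tested.

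**Figure D5:**
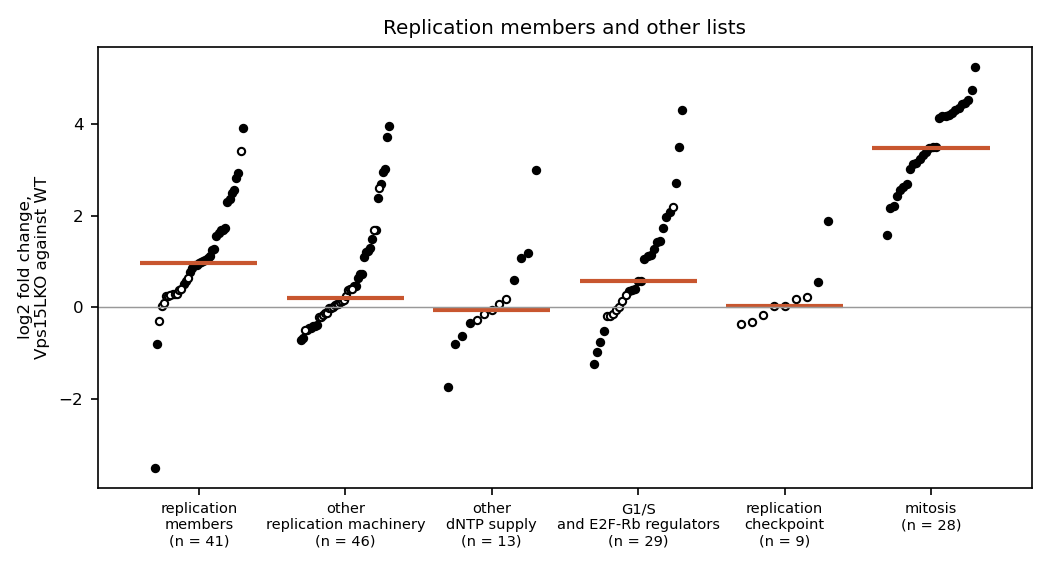
Log2 fold change of each gene, Vps15LKO against WT, in the replication members and 5 other lists; filled points were called in limma, open points were not called or not tested, and orange bars mark medians. The median over all genes of a list is 0.96 in the members, 0.21 in the other replication genes and 3.48 in mitosis. Over the tested genes alone it is 0.94, 0.15 and 3.48, and under total-read scaling 1.66, 0.87 and 4.13.

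Markers of several cell types moved with genotype. For comparison, 33.5% of all tested genes were called higher and 33% lower. These shares were 66.8% and 11.1% under total-read scaling, and 30.4% and 37.6% with quantile normalization. All markers of each list are counted, although 1 of cholangiocytes, 2 of lymphocytes, 5 of erythroid cells and 2 of neutrophils were not tested, and 3 cholangiocyte, 5 lymphocyte, 1 erythroid and 3 neutrophil markers were tested with fewer than 3 WT livers at 20 normalized counts. Of 10 hepatocyte markers 8 were called lower and 0 higher, and the sum of their normalized counts ran from 3466460 to 3877890 in WT livers and from 1022870 to 1542950 in Vps15LKO livers. Higher were 8 of 10 macrophage markers (sum 7521 to 8896 in WT and 28167 to 29056 in Vps15LKO livers), 10 of 10 stellate cell and fibroblast markers (7095 to 7597 and 30561 to 36135), 8 of 9 cholangiocyte and progenitor markers (1862 to 2325 and 15192 to 26781), 6 of 10 lymphocyte markers (251 to 377 and 1075 to 1176) and 5 of 7 neutrophil and monocyte markers (61.2 to 86.2 and 702 to 785). Of the endothelial markers 3 were higher and 5 lower among 9 (9516 to 10361 and 7955 to 9821), and of the 5 tested erythroid markers 1 was higher and 2 lower (sum over all 10, 6595 to 8735 and 5319 to 7427). Under total-read scaling 5 endothelial markers were higher and 0 lower, with Stab2 turning from −0.36 to 0.37, and 3 erythroid markers were higher and 2 lower. With quantile normalization the endothelial counts were 4 and 3. Total-read scaling left 8 hepatocyte markers lower and 0 higher, and 9 macrophage, 10 stellate, 8 cholangiocyte, 7 lymphocyte and 5 neutrophil markers higher. With quantile normalization 6 hepatocyte markers were lower and 0 higher (median log2 fold change −0.46 in place of −1.78), 4 lymphocyte markers were higher and 2 lower, 9 macrophage markers were higher and 1 lower, 3 erythroid markers were higher and 2 lower, and 10 stellate, 8 cholangiocyte and 5 neutrophil markers were higher. Markers at 0 in every WT liver included Gata1, Rhag and Epb42 of erythroid cells and Ly6g and Mpo of neutrophils. The part of these cells in the values of the replication genes was not tested.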

How the data were processed

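RNA of 3 WT and 3 Vps15LKO livers was enriched for polyA and sequenced from dUTP-marked libraries. The authors used HISAT2 to map the filtered reads to GRCm38, featureCounts to count them and DESeq2 to normalize. The versions, annotation release and strand setting are not given in the sources used here. The deposited values are a signal, the reads of each of 56305 genes over the size factor of the library. In each library 100% of values were whole multiples of 1 read (tolerance 0.001), so read counts were recovered. Groups and replicate numbers came from the labels, and each replicate is a separate mouse.

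The 15430 genes that reached 20 normalized counts in 3 or more of the 6 livers were compared on log2(normalized count + 1), a scale that understates changes of low genes, with limma 3.58.1 (lmFit, eBayes with trend) in R 4.3.3 and Benjamini-Hochberg adjustment over all tested genes. Calls needed an adjusted p below 0.05 and a 1.2-fold difference. Members and lists were chosen with earlier results of these data known. The text names all 41 members, Pik3r4, overlapping or neighbouring genes of members, and from each pathway list the called falls (the 4 largest where there were more) and the 3 largest rises, except that a few genes of these lists are not reported here by name. Of the promoters with the largest and smallest change in each role, 5 of 13 are shown. Gene symbols, exon lengths and overlaps came from GENCODE M21, which uses the authors' build and named 55141 genes, and promoters from RefSeq (GRCm38.p6). The alternatives were pseudocounts of 0.1 and 10, other filters, scalings and thresholds, limma without trend, the recovered counts with edgeR 4.0.16, with limma voom and with DESeq2 1.42.0, each replicate left out, and the replicate number as a block. Using only members without shared exons was added after the data were seen. Tables and plots were made with Python 3.11.15, numpy 2.4.6, pandas 2.3.3, scipy 1.17.1 and matplotlib 3.10.9.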

Additional observations from a re-analysis of the deposited data

How the results depend on the processing

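Each tested member was recomputed under 21 alternatives, except that 5 of the 40 did not pass the filter of 20 normalized counts in every liver and have 20. Of these values 777 kept their side of the threshold, 12 of them with a change of sign while not called either way, 31 lost their call, 26 gained one and 1 turned, that of Gins4, which went to 0.44 under total-read scaling. That scaling also turned Pik3r4 (0.19), Rnaseh2c (0.020), Dna2 (0.058), Pole4 (0.24), Top2b (0.27), Dguok (0.38) and E2f6 (0.21). The median of the members was 1.66 with total-read, 1.06 with upper-quartile and 0.50 with quantile scaling. A fold of at least 2 left 5185 genes and 19 members called (10262 and 29 otherwise), and 1 member lower in place of 2. The count of lower members was also 1 under total-read scaling and among members without shared exons. Asking for 20 normalized counts in all 6 livers, which drops genes low in WT, left 52 called genes in the 5 other pathway lists in place of 84. Of all calls 50.3% were higher, 85.7% under total-read scaling and 57.6% with upper-quartile, 44.7% with quantile normalization. With 1 liver left out, 27 to 31 members were called.

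Same-numbered livers did not deviate together (r = −0.01, −0.01 and 0.05 across genes), so the numbers were not taken as pairs. With the replicate block, 5065 genes were called higher and 4983 lower, and of the members 26 higher and 2 lower, Rfc5 losing its call. With 3 mice a group, no liver was tested for standing apart, and genes of few WT reads, such as Pole2, Cdc6 and Orc1, have wide errors.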
